A study of Rattus norvegicus with 12 samples.

Results

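The genes described here are DNA repair genes, taken from the array by symbol: the Xrcc, Ercc, Rad, Msh, Mlh, Parp, Fanc, Brca and Neil families and further single genes. The single genes are the ligases Lig1, Lig3 and Lig4, the glycosylases Ogg1, Mutyh and Nthl1, and the endonucleases Apex1 and Apex2. The rule kept probe sets (groups of short probes that read 1 transcript) to which the array's annotation gives exactly 1 symbol, and took for each gene the probe set with the highest mean over all arrays. It found 61 genes, with 80 probe sets between them, among 14217 genes with 1 symbol. No measured value entered the rule other than this choice of the brightest probe set. Genes whose symbols begin like a repair family but that belong to no single repair route were kept and grouped apart.

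The arrays came from the arcuate nucleus of the hypothalamus (ARC) of male Wistar rats, a nucleus beside the third ventricle that holds neurons controlling food intake. ARC tissue was cut by laser-capture microdissection at 3 months of age, and amplified RNA from it was read on an Affymetrix rat array. Control animals (n = 6) were born to and nursed by dams fed a control diet. Recuperated animals (n = 6) were born to dams fed a low-protein diet with 8% protein and nursed by control dams, with litters set up on postnatal day 3, and both groups ate standard chow after weaning. Each array carried RNA from 1 animal. The recuperated litters were also culled to fewer pups than control litters and held males alone, so that maternal diet and postnatal litter size cannot be told apart as sources of a difference between the groups. The comparison asks whether growth restriction before birth, followed by rapid growth during nursing, left a difference in the expression of repair genes in the adult ARC.

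DNA repair works through several routes, each suited to a kind of damage. Base excision repair replaces single damaged bases, nucleotide excision repair cuts out a stretch around bulky lesions, and mismatch repair corrects errors left by replication. Breaks across both strands are rejoined directly by end joining at any stage of the cell cycle, or copied from a sister chromatid by homologous recombination in cells that are replicating, and the Fanconi anaemia proteins open crosslinks between strands. Neurons have left the cell cycle, and base excision, nucleotide excision and end joining are the routes they are known to rely on.

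The main observation was the absence of a detectable difference. Of the 61 genes, 0 rose and 0 fell in recuperated animals at 1.3-fold with limma P under 0.05, where 0.612% of all genes rose and 1.21% fell by the same rule (1.2% and 1.27% of all probe sets). By limma, 0 of the 61 had an unadjusted P under 0.05 against 2.91% of all genes, and the methods' t-test, run on the same values, also gave 0. The smallest limma P among them was 0.0665, and after Benjamini-Hochberg adjustment over 31042 probe sets the smallest adjusted p was 0.999. For 0 of the 61 genes were the groups free of overlap, against 0.0352% of all genes with recuperated arrays higher and 0.0985% with recuperated arrays lower. Adjusted calls by limma were 0 over all 14217 genes as well. At shares this small, counts of 0 among 61 genes do not set the repair genes apart from other genes.

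Levels are given as log2 units above (positive) or below (negative) the median of all probe sets on the same array, and differences as recuperated minus control on that log2 scale. Probe sets differ in brightness for reasons other than transcript amount, so a level was compared between arrays and not between genes. The median difference over the 61 genes was -0.02, beside -0.04 over all genes, and 25 genes lay above 0, 34 below 0 and 2 at 0. The median size of a difference, whatever its sign, was 0.09 for the repair genes and 0.11 for all genes. Differences ran from -0.56 for Rad51b to 0.65 for Fancb, and 3 genes (Fancb, Fancc and Rad51b) were past 1.3-fold in either direction without regard to the test, which is 4.92% of the 61 against 5.44% of all genes.

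A value of P above the threshold does not show that the groups were alike, and the width of the 95% intervals shows what these 12 arrays could resolve. The interval lay inside 1.3-fold in both directions for 12 of the 61 genes (19.7%, against 3415 of 14217 genes), inside 1.5-fold for 40 and inside 2-fold for 58. The exceptions at 2-fold were Neil1, Rad51b and Fancb. Differences smaller than about 1.3-fold could therefore not be told from 0 for most of these genes, whereas a doubling or a halving lay outside the interval for nearly all of them. The SD between arrays of a group had a median of 0.338 for the repair genes and 0.292 for all genes.

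**Figure D1:**
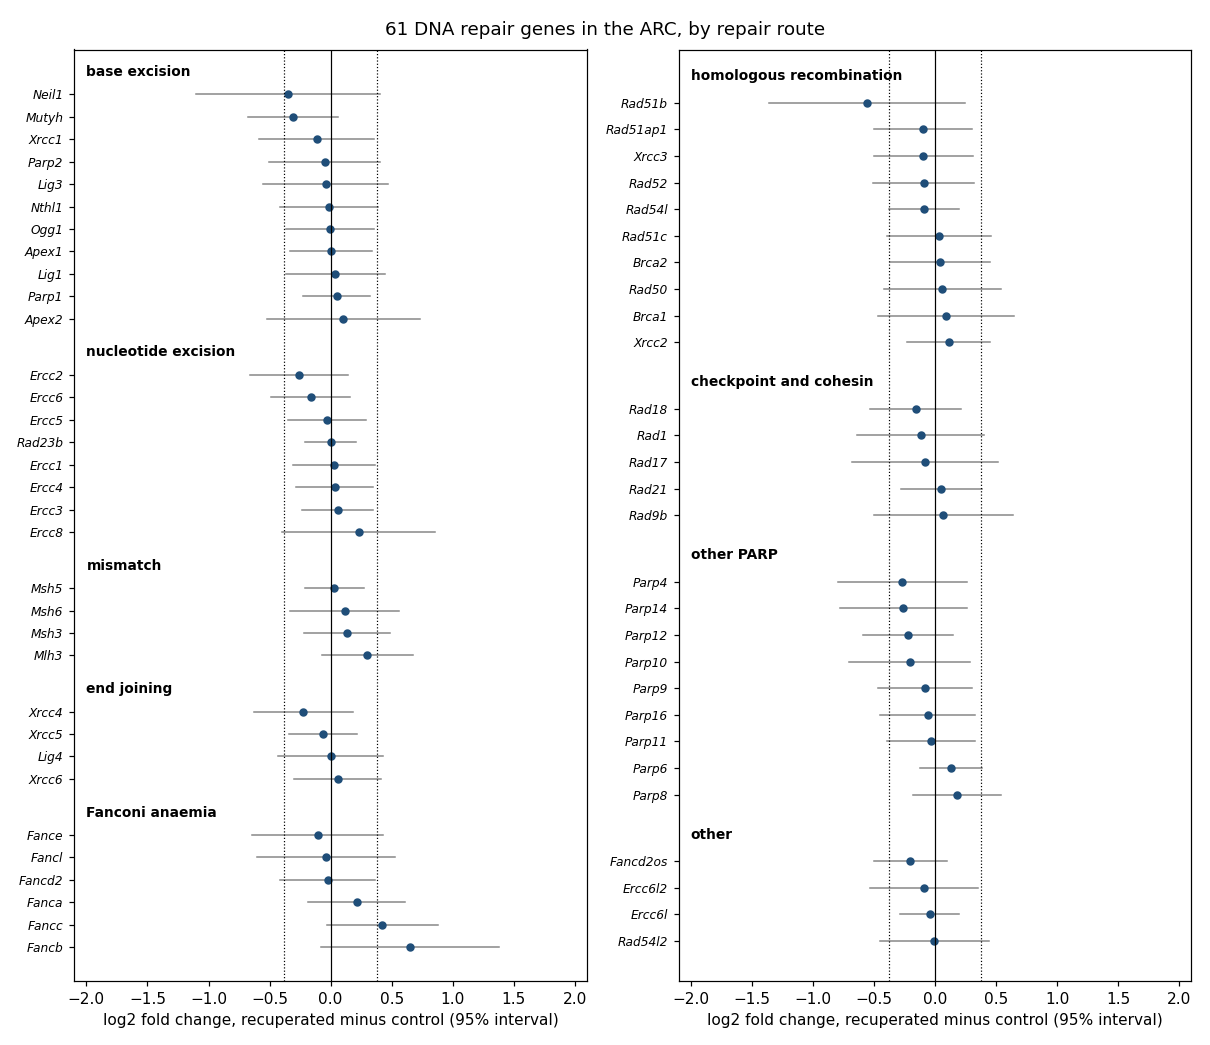
Difference in log2 level, recuperated minus control, for each of the 61 DNA repair genes, grouped by repair route; points are the limma estimates, bars the 95% confidence intervals, and dotted lines mark 1.3-fold in either direction. Every interval crosses 0, and the widest belong to Rad51b, Neil1 and Fancb.

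The routes differed in how many of their genes were bright on the array (above the array median on at least 6 of 12 arrays). All 8 nucleotide excision genes were bright, as were 7 of 11 base excision, 3 of 4 mismatch, 3 of 4 end joining and 6 of 9 further PARP genes. Only 3 of 10 homologous recombination genes and 2 of 6 Fanconi anaemia genes were, and 7 of the 10 recombination genes lay below the median on every array. Over all genes 63.6% were bright, and over the 61 repair genes 60.7%. Brightness is a property of the probe set as well as of the transcript and was not a detection call, so these counts describe the array and give no order of expression.

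**Figure D2:**
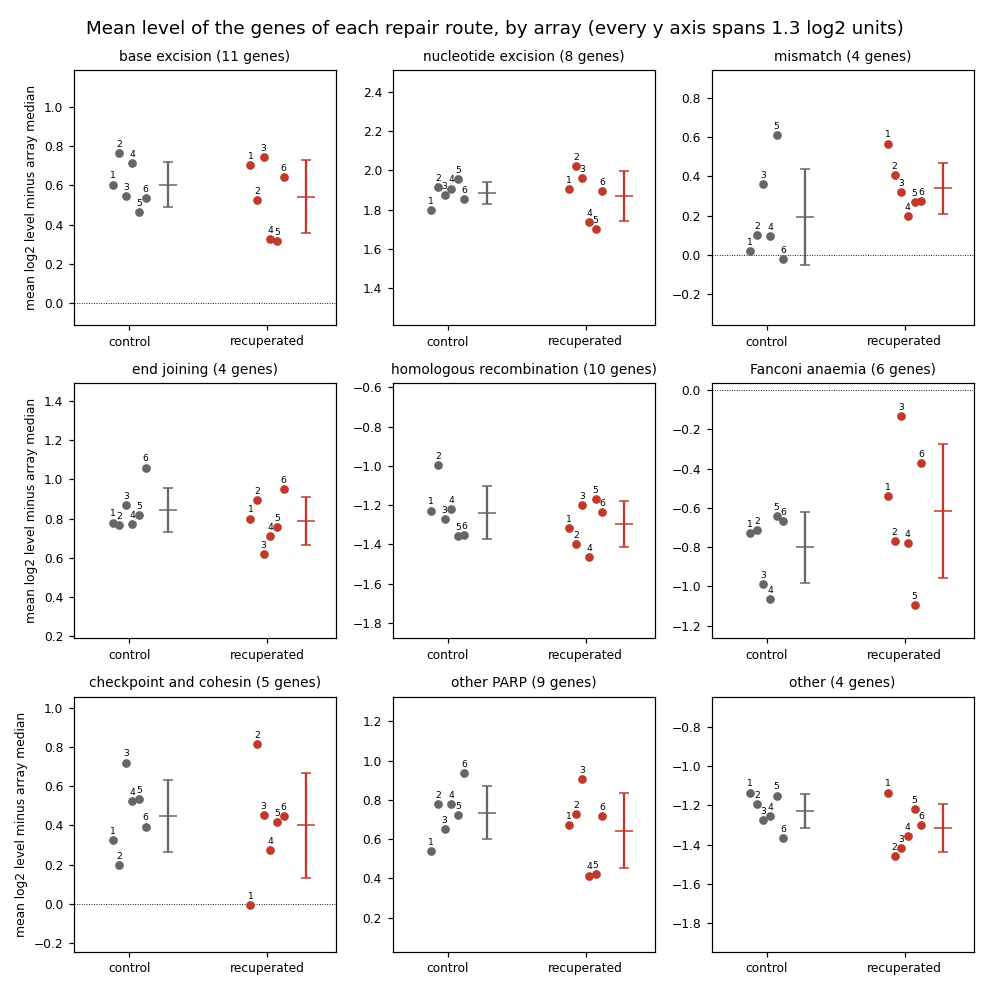
Mean log2 level minus array median over the genes of each repair route, for each array (numbered points; control grey, recuperated red), with the group mean and SD beside them (n = 6 per group). The y axes differ in position but all span the same range, and the groups overlap in all 9 panels.

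The mean level of each route was compared between arrays. Base excision genes averaged 0.60 ± 0.11 (SD, n = 6) in controls and 0.54 ± 0.19 in recuperated animals, and nucleotide excision genes 1.88 ± 0.05 and 1.87 ± 0.13. Mismatch genes averaged 0.19 ± 0.24 and 0.34 ± 0.13, and end joining genes 0.84 ± 0.11 and 0.79 ± 0.12. Homologous recombination genes averaged -1.24 ± 0.13 and -1.30 ± 0.12. Fanconi anaemia genes averaged -0.80 ± 0.18 and -0.62 ± 0.34, with recuperated arrays 3 and 5 at opposite ends of the recuperated range (-0.13 and -1.10). In every route the ranges of the groups overlapped. These means have no test of their own, since the genes were grouped with earlier results of these data known.

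Base excision repair starts with a glycosylase, which removes the damaged base, and Apex1, the endonuclease that then cuts the strand. Ogg1, the glycosylase for oxidised guanine, ran from -1.42 to -0.63 in controls (median -0.87) and from -1.26 to -0.55 in recuperated animals (median -1.02). The difference of 0.00 had a 95% interval of -0.36 to 0.36, and the ranges of the groups nearly coincided. Apex1 ran from 2.59 to 3.32 in controls (median 2.96) and from 2.60 to 3.35 in recuperated animals (median 2.92), an interval of -0.33 to 0.34. Both genes thus overlapped from end to end.

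Mutyh, the glycosylase that removes adenine placed opposite oxidised guanine, had the smallest limma P of the route (0.0916). Its levels in controls were -0.31, 0.01, -0.82, -0.28, -0.61 and -0.02, and in recuperated animals -0.37, -0.95, -0.31, -0.94, -0.63 and -0.70. Recuperated arrays 2 and 4 lay below every control and 5 of 6 lay below the control mean, but the groups overlapped. The difference was -0.31 (95% interval -0.68 to 0.06, exact permutation p = 0.11).

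Further steps of the route join and seal the gap. Xrcc1, the scaffold that holds the repair proteins at a nick, ran from 1.19 to 1.89 in controls and from 0.63 to 2.15 in recuperated animals, with a difference of -0.11 (interval -0.58 to 0.36). Parp1, which senses breaks and attaches chains of ADP-ribose to proteins around them, ran from 0.15 to 0.58 and from 0.12 to 0.60, with a difference of 0.05 (interval -0.22 to 0.32). Xrcc1 spread more widely in recuperated animals, with array 1 at the top and array 5 at the bottom, whereas the Parp1 ranges almost coincided. Neil1, a glycosylase for oxidised pyrimidines, had the widest range of the route (-0.76 to 1.59 over all arrays) and a difference of -0.35 (interval -1.11 to 0.41). The other base excision genes (Apex2, Lig1, Lig3, Nthl1 and Parp2) had differences of -0.05 to 0.10.

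Nucleotide excision repair was the most tightly measured route: 5 of its 8 intervals lay inside 1.3-fold. Rad23b, which with Xpc recognises the distorted helix, ran from 5.10 to 5.30 in controls (median 5.25) and from 5.09 to 5.29 in recuperated animals (median 5.23). The difference was 0.00 with an interval of -0.21 to 0.21, the narrowest of all 61 genes. The ranges covered each other.

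Ercc2 and Ercc3 are the helicases of the transcription factor TFIIH, which unwinds the damaged stretch. Ercc2 (0.19 ± 0.30 in controls, -0.07 ± 0.37 in recuperated animals) had the smallest limma P of the route, with levels in controls of -0.10, 0.40, -0.27, 0.33, 0.45 and 0.34 and in recuperated animals of 0.43, -0.24, 0.11, -0.68, 0.03 and -0.06. Recuperated array 4 alone lay below every control. The difference was -0.26 (interval -0.66 to 0.14, exact permutation p = 0.216), and -0.14 without that array. Its partner Ercc3 had a difference of 0.06 (interval -0.24 to 0.35), with the groups overlapping.

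Ercc1 and Ercc4 form the nuclease that cuts upstream of the lesion. Ercc1 ran from 1.47 to 2.30 in controls and from 1.73 to 2.26 in recuperated animals, an interval of -0.31 to 0.36, and Ercc4 had an interval of -0.28 to 0.35. The recuperated range lay inside the control range in both. Ercc6 and Ercc8 start the branch of the route that follows stalled RNA polymerase: Ercc6 ran from 2.51 to 2.97 in controls and from 2.22 to 3.06 in recuperated animals (interval -0.49 to 0.16), and Ercc8 had a difference of 0.23 (interval -0.40 to 0.86). Ercc5, the nuclease that cuts downstream, had an interval of -0.35 to 0.29. Within the Ercc2 and Ercc3 pair and within the Ercc6 and Ercc8 pair the differences had opposite signs, and all 4 intervals included 0.

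**Figure D3:**
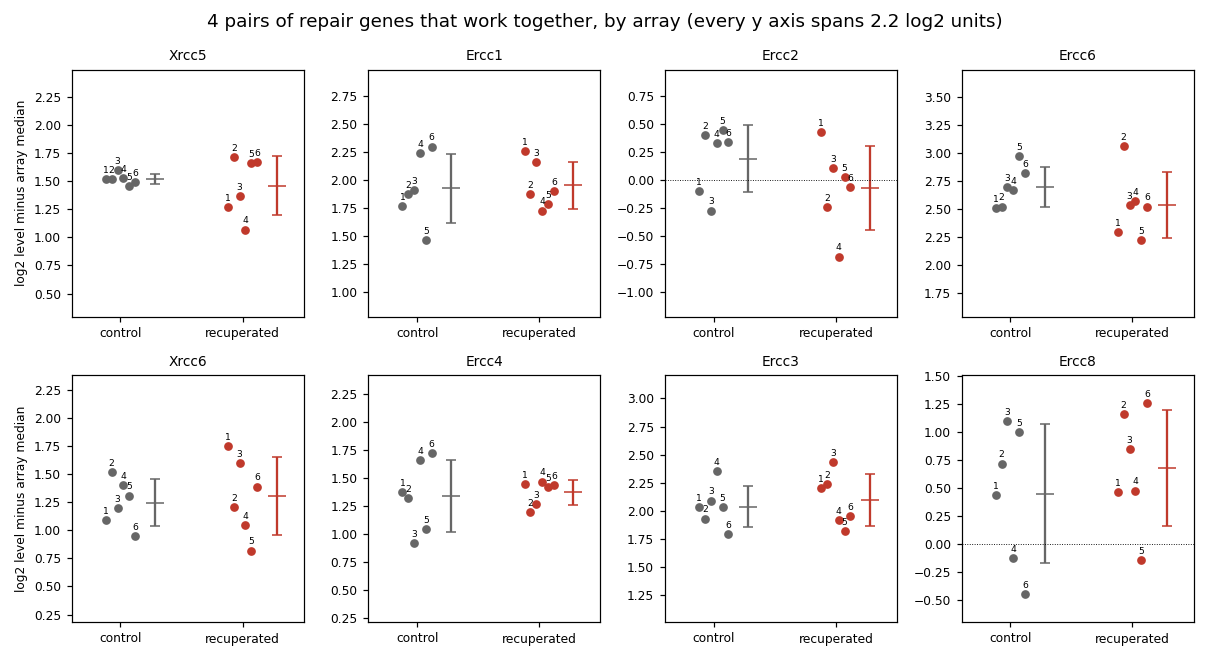
Log2 level minus array median for genes whose proteins work as pairs, on each array (control grey, recuperated red; every point is 1 animal, the bars show the mean and SD). Both groups overlap for each gene. The brightest probe set of Xrcc5, shown here, is spread over 1.07 to 1.72 in recuperated animals against 1.46 to 1.60 in controls. Its dimmer probe set, not shown, had the wider range in controls.

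The mismatch genes were Msh3 and Msh6, which bind mispaired bases, Msh5, which acts in meiosis, and Mlh3, which acts after the mispair is bound. All 4 differences were above 0 (0.03 to 0.30), where 39.6% of all genes were. Msh6 ran from 1.79 to 2.92 in controls (median 1.88) and from 1.67 to 2.56 in recuperated animals (median 2.27), with a difference of 0.12 (interval -0.33 to 0.56). Mlh3 was at -0.46, -0.29, 0.26, -0.14, 0.15 and -0.72 in controls and at 0.37, 0.15, -0.16, 0.09, 0.30 and -0.15 in recuperated animals. Recuperated arrays 1 and 5 lay above every control, all 6 lay above the control mean, and the groups overlapped. The difference was 0.30 (interval -0.07 to 0.67, exact permutation p = 0.121). A dimmer probe set of Mlh3 differed the other way by -0.38 (SE 0.31, exact permutation p = 0.331), and the mean of both probe sets differed by -0.04. Of the mismatch genes outside the symbol rule, Pms1 differed by -0.19, Pms2 by -0.11 and Exo1, a nuclease of the route, by -0.36, and the interval of each included 0. Genes less particular to the route, Pcna and Rfc1 to Rfc5, ran from -0.09 (Rfc3) to 0.42 (Rfc1), and their intervals also included 0.

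End joining begins with the Ku heterodimer, made of Xrcc5 and Xrcc6, which caps the broken ends. Xrcc5 was at 1.52, 1.52, 1.60, 1.53, 1.46 and 1.49 in controls and at 1.27, 1.72, 1.37, 1.07, 1.66 and 1.67 in recuperated animals. Recuperated arrays 2, 5 and 6 lay above every control and arrays 1, 3 and 4 lay below every control, so that the means hardly differed (difference -0.06, interval -0.34 to 0.22) while the SD was 0.05 in controls and 0.26 in recuperated animals. The difference in SD was read off after the values were seen and was not tested. The dimmer probe set of Xrcc5 ran from -2.24 to -1.24 in controls and from -2.18 to -1.72 in recuperated animals. Its range was thus the wider in controls, opposite to the brightest probe set. Xrcc6, the partner of Xrcc5, ran from 0.95 to 1.52 in controls and from 0.82 to 1.75 in recuperated animals, with a difference of 0.06 (interval -0.30 to 0.41). Over the 61 repair genes the SD was larger in recuperated animals for 31 (50.8%), and over all genes for 62.7%.

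Xrcc4 and Lig4 form the ligase that seals the ends. Xrcc4 was at -0.80, -0.44, -0.67, -1.04, -0.66 and -0.02 in controls and at -0.87, -0.66, -1.32, -0.42, -1.09 and -0.61 in recuperated animals. Recuperated arrays 3 and 5 lay below every control and the others overlapped with them. The difference was -0.22 (interval -0.63 to 0.18, exact permutation p = 0.288). Lig4 had the same mean of 1.22 in both groups, with an interval of -0.43 to 0.43.

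Among the homologous recombination genes Rad51b, which assists the exchange of strands, had the lowest difference of the 61. Its levels were 0.66, 1.5, 1.06, 1.27, 0.96 and -0.21 in controls and -0.50, 0.97, 1.33, -0.62, -0.25 and 0.98 in recuperated animals. Recuperated arrays 1, 4 and 5 lay below every control and the other 3 lay among the controls. The difference was -0.56 (interval -1.36 to 0.25, exact permutation p = 0.223), so that neither no difference nor a change of more than 2-fold was outside the interval. Without recuperated array 4, where Rad51b was lowest, the difference was -0.37, short of 1.3-fold. Without control array 6 it was larger, as given further on.

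Brca1 and Brca2 act in the steps that prepare broken ends for recombination. Brca1 lay below the array median on every array, from -2.05 to -0.83 in controls (median -1.42) and from -1.85 to -0.35 in recuperated animals (median -1.45), with an interval for the difference of -0.47 to 0.65. Brca2 ran from -0.73 to 0.40 in controls (median 0.11) and from -0.13 to 0.64 in recuperated animals (median -0.02), with an interval of -0.37 to 0.45. Recuperated array 1 was the highest of its group for both. The remaining recombination genes other than Rad50 (Rad51ap1, Rad51c, Rad52, Rad54l, Xrcc2 and Xrcc3) lay below the array median on all 12 arrays, with differences of -0.10 to 0.11.

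Markers of dividing cells were higher in mean level in recuperated animals by 0.14, with 9 of 14 above 0, where 39.6% of all genes were. Their level, averaged over the list, was -1.70 to -1.48 in controls and -1.63 to -1.17 in recuperated animals. The groups thus overlapped (exact permutation p = 0.0801 for the list mean). Of the 14, 10 lay below the array median on every array, among them Top2a, which differed by -0.21, and Aurkb, a mitotic kinase. Aurkb was the 1 marker of the 14 past 1.3-fold with limma P under 0.05, where 0.612% of all genes rose by that rule. Its difference was 0.85 (SE 0.36, exact permutation p = 0.0671, limma adjusted p = 0.999). Of other marker lists, 0 of 8 ARC, 1 of 8 microglia, 1 of 6 astrocyte and 2 of 6 oligodendrocyte markers lay above 0. The same held for 1 of 5 tanycyte and ependyma markers and 0 of 2 blood markers. Above 0 were also 4 of 5 markers of the neighbouring ventromedial nucleus, 4 of 6 neuron and 3 of 5 endothelium markers. The part of the markers of dividing cells in the recombination and Fanconi values was not tested. In tissue of this kind, fewer cells of a type and less RNA per cell cannot be told apart.

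The Fanconi anaemia genes included Fanca, Fancb, Fancc, Fance and Fancl, whose products belong to the complex that attaches ubiquitin, and Fancd2, which receives it. Fancc (probe set 1377226_at) had the smallest limma P of all 61 genes (0.0665). Its levels were 0.25, -1.24, -0.60, -0.77, -0.33 and -0.64 in controls and -0.29, -0.47, 0.15, -0.21, -0.18 and 0.21 in recuperated animals. All 6 recuperated arrays lay above the control mean of -0.56, but none lay above control array 1. The difference was 0.42 (SE 0.21, interval -0.03 to 0.88, exact permutation p = 0.0931). The other probe sets of Fancc differed by 0.04 (SE 0.13) and 0.19 (SE 0.14), and without control array 1 the difference of the brightest was 0.58 and passed the threshold.

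Promoters were matched to 55 of the 61 genes in RefSeq's table for the rat assembly GRCr8, as the 250 bases before and 50 after each transcription start. The arrays name no genome build, and the positions given belong to GRCr8 alone. Both strands were searched for 3 forms of the site that E2F factors bind at replication genes (TTTCCCGC, TTTGGCGC and TTTCGCGC), and for the interferon-stimulated response element, taken as GAAA, any 2 bases and GAAA. E2F letters stood in 6 of the 55 promoters (10.9%), against 3.05% of 11700 promoters of genes on the array. They were those of Fancc, Fancd2, Fancl, Lig1, Msh6 and Nthl1, so that 3 of the 6 belonged to Fanconi genes. None of these 6 genes passed the threshold. The letters are a match and not a bound site, and no promoter of the 55 held both kinds.

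The promoter of Fancc is shown because the gene had the smallest P of the 61. It lies at chr17:1686839-1687088 (plus strand), and is printed as the 250 bases before the start in the direction of transcription, with the E2F match, which reads on the opposite strand, in capitals. The first matched base is at -29 from the start.
Fancc: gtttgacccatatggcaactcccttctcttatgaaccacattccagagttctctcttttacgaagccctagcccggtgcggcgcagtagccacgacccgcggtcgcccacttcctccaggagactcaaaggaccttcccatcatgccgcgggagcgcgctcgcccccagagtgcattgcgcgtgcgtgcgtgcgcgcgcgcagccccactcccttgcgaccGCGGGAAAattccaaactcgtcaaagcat

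Fancb, singled out after its values were seen because its difference was the largest, ran from -3.93 to -1.88 in controls (median -3.07) and from -3.08 to -1.75 in recuperated animals (median -2.30). It was far below the array median on every array. The difference was 0.65 (interval -0.08 to 1.38, exact permutation p = 0.113), and recuperated arrays 1 and 4 lay above every control. Fanca ran from -1.16 to -0.49 in controls and from -1.13 to -0.05 in recuperated animals, with a difference of 0.21 (interval -0.19 to 0.61). Fancd2 ran from -2.14 to -1.39 and from -2.24 to -1.20, with a difference of -0.02 (interval -0.41 to 0.37). The recuperated range of Fancd2 enclosed the control range.

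**Figure D4:**
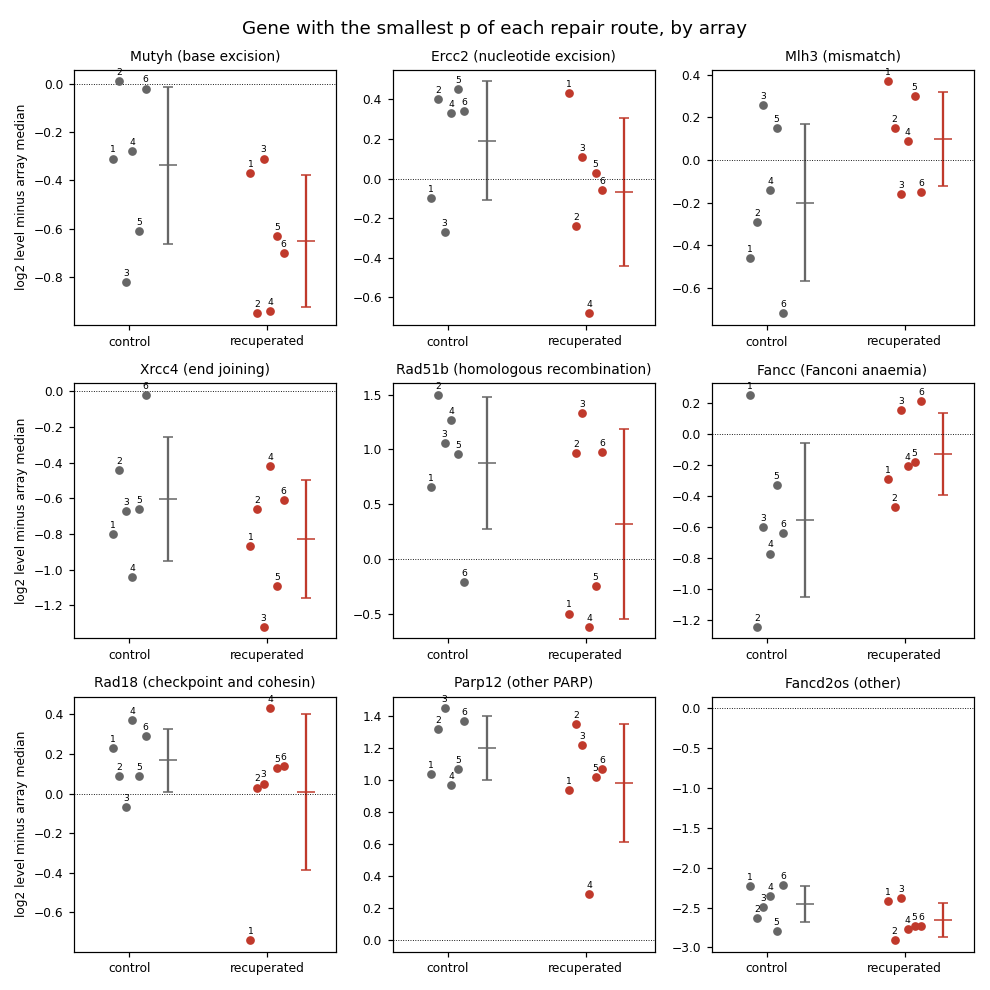
Log2 level minus array median on each array for the gene with the smallest limma P in each repair route (control grey, recuperated red; every point is 1 animal, the bars show the mean and SD). The groups overlap for all 9 genes, including Fancc, for which all 6 recuperated arrays lie above the control mean.

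The checkpoint and cohesin genes were Rad1 and Rad9b, parts of clamps that mark damaged DNA, Rad17, which loads the clamp, Rad18, the ligase that tags PCNA at stalled forks, and Rad21, a cohesin subunit. Differences ran from -0.16 to 0.07. Rad18 had the smallest P of them. It was at 0.23, 0.09, -0.07, 0.37, 0.09 and 0.29 in controls and at -0.74, 0.03, 0.05, 0.43, 0.13 and 0.14 in recuperated animals. Recuperated array 1 lay below all others and array 4 above all others, with the rest among the controls (exact permutation p = 0.47).

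The PARP genes outside base excision mostly encode enzymes that attach single ADP-ribose units to proteins, and of these Parp9, Parp10, Parp12 and Parp14 are known as interferon-induced. Of the 9 genes, 7 lay below 0 and 2 above, with a median of -0.08, and over all 14217 genes 8536 lay below 0. Of the 9, 3 (Parp9, Parp10 and Parp12) had their lowest level on recuperated array 4 (33.3%, against 19.1% of all genes). Another of the 9, Parp11, had its highest level there (11.1%, against 12.4% of all genes). Recuperated array 4 stood apart in its tissue markers as described further on. Parp12 was at 1.04, 1.32, 1.45, 0.97, 1.07 and 1.37 in controls and at 0.94, 1.35, 1.22, 0.29, 1.02 and 1.07 in recuperated animals. Recuperated array 4 lay far below the others, array 1 lay just below the controls, and the rest overlapped with them. The difference was -0.22 (interval -0.59 to 0.14, exact permutation p = 0.232), and -0.08 without recuperated array 4. Parp9 differed by -0.08, which became 0.06 without that array and 0.03 with array weights, and Parp10 by -0.21, which became -0.11 without it. The brightest probe set of Parp14 differed by -0.26 and its other probe set by 0.28 (SE 0.19), so that their mean differed by 0.01. The intervals of Parp9, Parp10, Parp12 and Parp14 all included 0. Parp4 ran from 0.72 to 0.98 in controls and from -0.63 to 1.22 in recuperated animals, with arrays 4 and 5 below every control and array 3 above every control.

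The response element stood in 4 of the 55 promoters (7.27%), against 2.99% of promoters of genes on the array. They were Parp4, Parp12 and Parp14, 3 of the 8 promoters found for the PARP genes outside base excision, and, outside this family, Ercc5. The promoter of Parp9 held no match and none was found for Parp10, while Parp4 is not among those named above as interferon-induced. The matched PARP promoters are printed in the same way, because they are 3 of the 4 matches and belong to 1 family, with the matched letters in capitals. Parp12 lies at chr4:68850542-68850791 (minus strand) with its match on the opposite strand to the gene, Parp14 at chr11:78407884-78408133 (plus strand) and Parp4 at chr15:34805953-34806202 (plus strand), where 2 copies overlap.
Parp12: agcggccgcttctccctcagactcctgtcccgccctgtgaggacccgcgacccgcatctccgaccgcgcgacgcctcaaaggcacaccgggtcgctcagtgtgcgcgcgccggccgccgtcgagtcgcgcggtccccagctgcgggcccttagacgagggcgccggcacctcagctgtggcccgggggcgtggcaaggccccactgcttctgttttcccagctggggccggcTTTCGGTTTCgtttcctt
Parp14: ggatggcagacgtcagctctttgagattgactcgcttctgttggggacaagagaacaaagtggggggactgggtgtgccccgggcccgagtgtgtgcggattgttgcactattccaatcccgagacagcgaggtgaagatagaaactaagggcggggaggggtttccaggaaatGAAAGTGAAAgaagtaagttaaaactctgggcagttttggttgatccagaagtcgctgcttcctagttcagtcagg
Parp4: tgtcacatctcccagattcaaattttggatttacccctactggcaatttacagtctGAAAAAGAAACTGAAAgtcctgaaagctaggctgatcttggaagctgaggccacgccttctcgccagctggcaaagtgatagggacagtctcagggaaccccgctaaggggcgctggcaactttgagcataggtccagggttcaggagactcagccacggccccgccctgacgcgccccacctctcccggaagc

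Ercc6l, Ercc6l2, Fancd2os and Rad54l2 were placed in no route, and all 4 differences lay below 0 (-0.20 to -0.01). Fancd2os, named for lying on the strand opposite Fancd2, had the smallest P. It was at -2.23, -2.63, -2.49, -2.36, -2.80 and -2.22 in controls and at -2.42, -2.91, -2.38, -2.77, -2.73 and -2.73 in recuperated animals. Recuperated array 2 alone lay below every control. The difference was -0.20 (interval -0.50 to 0.10, exact permutation p = 0.143).

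Of the 61 genes, 16 had more than 1 probe set, which gives a second reading of the same gene on the same arrays. For 8 of the 16 the probe sets differed from control in opposite directions, and the spread of the differences within a gene had a median of 0.21 and a maximum of 0.89. Counted one by one, 1 of the 80 probe sets rose at 1.3-fold with limma P under 0.05 and 1 fell, 1.25% each, beside 1.2% and 1.27% of all probe sets. The one that fell belongs to Rad50, part of the complex that senses and trims broken ends, and is its middle probe set by brightness. That probe set (1397642_at) was at 0.10, -0.05, 0.41, 0.11, 0.36 and 0.67 in controls and at -0.48, 0.03, -0.39, 0.02, -0.25 and -0.02 in recuperated animals. Recuperated arrays 1, 3 and 5 lay below every control and the others among the lowest controls. The difference was -0.45 (SE 0.15, limma P = 0.00946, exact permutation p = 0.0108, adjusted p = 0.999). Without control array 6 it was -0.37, short of 1.3-fold.

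The brightest probe set of Rad50 differed by 0.06 (SE 0.22) and the dimmest by 0.44 (SE 0.33), so 3 readings of 1 gene ran in both directions. The probe set that rose was the dimmest of Parp6 (1389887_at), with a difference of 0.62 (SE 0.24, limma P = 0.0247, exact permutation p = 0.0541). It ran from -3.05 to -2.03 in controls and from -2.33 to -1.01 in recuperated animals. The brightest probe set of Parp6 differed by 0.13 (SE 0.12) and the middle one by -0.055 (SE 0.19). The call of the dimmest was lost without control array 2 (0.51), control array 6 (0.56), recuperated array 3 (0.54) or recuperated array 5 (0.44). Which part of each transcript a probe set reads was not analysed here.

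**Figure D5:**
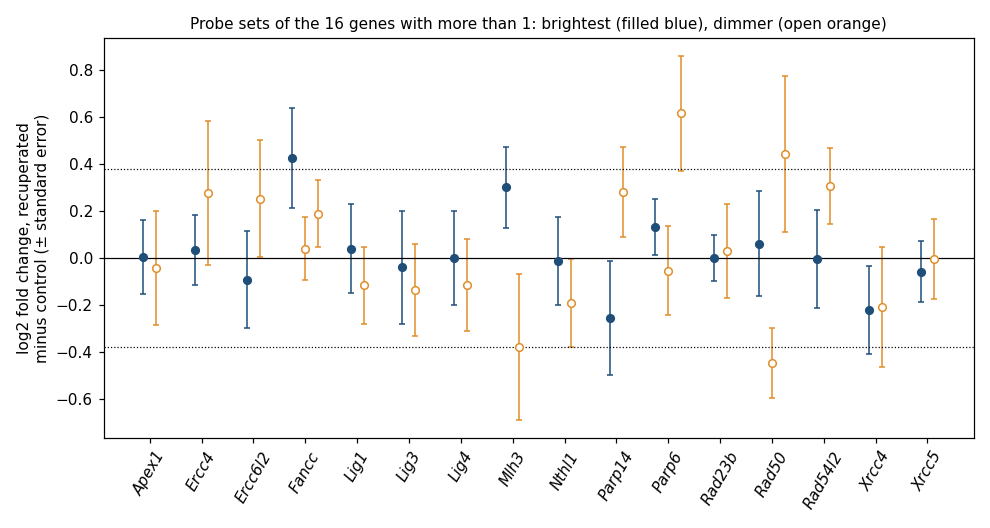
Difference in log2 level, recuperated minus control, for every probe set of the 16 repair genes with more than 1 (filled, brightest; open, dimmer), with bars for the standard error and dotted lines at 1.3-fold. The open points of Rad50 lie on both sides of 0, at -0.45 and 0.44.

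Genes of the same pathways outside the symbol rule were read from a list of sensors, polymerases, nucleases and checkpoint kinases. Of 77 listed, 67 were measured, with 26 above 0, 41 below 0 and a median of -0.04. By 1.3-fold and limma P under 0.05, 1 rose and 0 fell. The 1 was Rev3l, the catalytic subunit of the polymerase that copies past lesions. It was at -0.37, -0.93, -0.94, -0.40, -0.18 and -0.19 in controls and at -0.22, 0.16, -0.21, -0.07, 0.04 and -0.33 in recuperated animals. Recuperated arrays 2, 4 and 5 lay above every control and all 6 above the control mean. The difference was 0.40 (SE 0.16, limma P = 0.0287, adjusted p = 0.999, exact permutation p = 0.0281). The 1 of 67 is 1.49%, beside 0.612% of all genes. The call was lost with replicate number as a block, and without control array 2 (0.31), control array 3 (0.31), recuperated array 2 (0.34) or recuperated array 5 (0.37). Rev3l was above the array median on 2 of 12 arrays and was not tested under the filter on dim probe sets.

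Recuperated array 4 stood apart in its tissue markers. Its mean level of ventromedial nucleus markers, genes of the neighbouring nucleus, was 2.71 against -0.49 to 0.95 on the other 11 arrays, and its mean of ARC markers was 0.72 against 3.03 to 3.36. Of the 61 repair genes, 10 had their lowest level on that array (16.4%, against 19.1% of all genes) and 2 their highest (3.28%, against 12.4%). Without it the median difference was 0.01, with 34 genes above 0 and 27 below, beside a median of -0.03 over all genes. RNA quality, read as the 3′ minus 5′ difference of beta-actin, GAPDH and hexokinase, did not separate the groups (exact permutation p = 0.576, 0.463 and 0.433). The arrays carry no batch label that could be used, and arrays of a group correlated at 0.959 to 0.985 over all probe sets.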

How the data were processed

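ARC tissue was collected by laser-capture microdissection and its RNA amplified (NuGEN Ovation Pico, per the study's methods) for 12 arrays, 6 per group. The deposited values are log2 levels made by the authors with RMA, which corrects background, normalizes quantiles and summarises probes; Affymetrix Expression Console is named in the submitters' processing notes, and versions are not given in the sources used here. Array medians ran from 6.21 to 6.3.

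From these values, each array's median over 31042 probe sets (57 Affymetrix controls left out) was subtracted, and limma 3.58.1 in R 4.3.3 was fitted as recuperated minus control over all of them, with Benjamini-Hochberg adjustment. The threshold was that of the study's methods, 1.3-fold with P under 0.05. Single genes also had an exact two-sided permutation test over 924 arrangements, whose smallest possible p is 0.00216. Annotation gave 20826 probe sets 1 symbol, 436 several and 9780 none. Precision was set by the 12 arrays.

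Members that pass the threshold, that do not overlap between groups or that have the smallest P of their route are given array by array, and route-defining genes chosen by name array by array or as the range of each group. The members, routes and lists were chosen with earlier results of these data known. The fit was tested on simulated data. The labels name separate animals, and the study's methods count litters as n. GCOS and GC-RMA values, which the study's threshold also drew on, were not analysed here. Alternatives tried were no median subtraction, quantile normalization, a filter on dim probe sets, the mean of a gene's probe sets, array weights, the methods' t-test, a replicate block and leaving out each array.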

Additional observations from a re-analysis of the deposited data

Results flagged for a closer look

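Among the 122 groups of 6 arrays (61 genes, control and recuperated), 5 held 1 array far from the rest by Dixon's criterion (the gap to the nearest array as a share of the range of the group), where chance marks about 1 in 20 groups. Brca1 was at -0.35 on recuperated array 1, and between -1.85 and -1.35 on the other 5. Brca2 was at 0.64 on the same array against -0.13 to 0.01, and at -0.73 on control array 5 against 0.03 to 0.40. Rad18 was at -0.74 on recuperated array 1 against 0.03 to 0.43. Fancd2 was at -2.14 on control array 4 against -1.63 to -1.39. No difference between groups was reported for any of these genes.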

How the results depend on the processing

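Over 20 settings, counting the main one, the median difference of the repair genes stayed between -0.04 and 0.01, and leaving out 1 array gave the same range. No repair gene passed the threshold with the dim filter, with the mean of a gene's probe sets, without median subtraction, with quantile normalization, with array weights or with the methods' t-test. Leaving out 1 array gave 0 to 2 genes higher, 0 to 1 lower and 0 to 0 past the adjusted threshold. These calls were Fancc (0.58 without control array 1, 0.49 without recuperated array 2), Mlh3 (0.39) and Mutyh (-0.41) without control array 3, Rad51b (-0.77) without control array 6, Parp10 (-0.40) without recuperated array 3, and Fancb (0.87, 0.77 and 0.79 without control array 6, recuperated array 2 and recuperated array 5); the cause was not tested. Counting all 80 probe sets singly, an alternative chosen after seeing the data, gave 1 higher and 1 lower. Among the pathway genes outside the rule the number higher was 0 with the dim filter, 2 without median subtraction (Rfc1 and Rev3l) and 0 to 2 leaving out 1 array; the number lower was 1 with array weights (Chek2) and 0 to 3 leaving out 1 array.

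With replicate number as a block, 0 repair genes were higher and 0 lower, with a median of -0.02, and among the pathway genes 0 were higher and 1 lower (Mdc1). Deviations of same-numbered arrays correlated at -0.16 to 0.08 and 1 recuperated array correlated best with its own number, so the numbers were not taken to pair the animals. The uncalled direction of 36 of the 61 genes turned, or moved off 0, in at least 1 setting. The 36 include Lig4 and Rad23b, whose main difference was 0 and so had no direction to turn. Genes above 0 numbered 25 as reported and 30 with quantile normalization or without median subtraction. The number of arrays limits what could be resolved, as the intervals show.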
